A study of Homo sapiens with 4 samples.

Results

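HOX genes, 38 of the 39 in the human genome, were examined in the glioma cell line GBM8401 before and after it was made resistant to temozolomide (TMZ), an alkylating drug given against glioblastoma. Members were the protein-coding genes of GENCODE 29 whose symbol is HOXA, HOXB, HOXC or HOXD followed by a number, 39 of the 19790 protein-coding gene IDs in the deposited table of 58219 IDs. Of these, 38 are described: 10 in the HOXA cluster, 10 in HOXB, 9 in HOXC and 9 in HOXD, and counts and sums are over them. GBM8401 is an established human malignant glioma line. The parental group was the line labelled parental (2 libraries), and the resistant group was a line derived from it by growth in medium with 200 µM TMZ for 140 days (2 libraries). The line was grown in RPMI1640 with fetal bovine serum, and the labels do not say whether TMZ was present at harvest. The labels call the replicates biological, but both resistant libraries come from 1 derived line, so p-values measure the spread between these cultures only.

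HOX genes encode transcription factors that bind DNA through a homeodomain and give cells of the embryo their position along the body axis. They sit in clusters that arose by duplication, so that a gene has counterparts (paralogs) of the same number in other clusters, and genes at the 3′ end, with low numbers, act in anterior regions while those at the 5′ end, with high numbers, act in posterior ones. The adult forebrain is largely without HOX expression, and HOX genes are known to be transcribed in many gliomas.

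HOX expression was lower in resistant cells for 10 genes, among them HOXB3, HOXB7, HOXA5 and HOXC5, and higher for HOXB9. The 10 include HOXC12, which passed the filter on low values only through the parental libraries. The number of falls was smaller in every fit that left out 1 library, where the test has less power. Of the called genes, only HOXB3 and HOXB9 kept their calls in every alternative run. The share of HOX genes that changed was near that of all genes. HOXB9 was the most abundant member per kilobase of exon in both groups, and it rose while HOXB6 and HOXB7 of its cluster fell. HOXB8, between HOXB7 and HOXB9, lay higher without a call (log2 fold change 0.70). The level of RNA in a culture is the mean over its cells, so fewer cells with a transcript and less transcript per cell cannot be told apart.

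The deposited values are scaled fragment numbers per gene, with library totals between 23163310 and 25832511. One fragment was worth 0.753 to 0.956 units, so a value of 10 rests on little more than 10 fragments. Of the astrocyte and glioma markers, GFAP, S100B and AQP4 were near 0 (at most 4.25), SOX2 was at most 10.5, and OLIG2 (183 to 237), NES (3430 to 7859), VIM (47407 to 81177) and SLC1A3, the astrocyte glutamate transporter (2853 to 4312), were present. Across the 16132 tested genes the resistant cells were higher for 16.2% and lower for 20.9%, together 37.1% (limma, adjusted p under 0.05), and the median log2 fold change was -0.02. Scaling to library totals instead of the deposited scaling raised the share of higher genes among those that changed from 43.7% to 56.9%.

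The homeobox of each member, the 180 bases that encode the 60 residues of the homeodomain, was read from GENCODE 29 transcripts (GRCh38) and lay within a single exon in all 38. Homeodomains of the same paralog group shared a median of 94.2% of residues over 40 pairs (78.3% to 100%), against 62.5% over 162 pairs within a cluster. Paralog group 9 is shown because it holds HOXB9, the most abundant member and the one that rose, beside HOXC9, which fell. The sequences run 5′ to 3′ on the coding strand, and capitals mark codons for residues that differ from HOXB9. They lie at chr17:48622921-48623100 (minus strand, HOXB9), chr12:54002465-54002644 (plus, HOXC9) and chr2:176123969-176124148 (plus, HOXD9).
HOXB9: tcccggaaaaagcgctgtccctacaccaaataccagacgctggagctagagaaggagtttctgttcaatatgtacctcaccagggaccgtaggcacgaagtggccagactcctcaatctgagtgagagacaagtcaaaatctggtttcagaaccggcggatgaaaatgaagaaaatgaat
HOXC9: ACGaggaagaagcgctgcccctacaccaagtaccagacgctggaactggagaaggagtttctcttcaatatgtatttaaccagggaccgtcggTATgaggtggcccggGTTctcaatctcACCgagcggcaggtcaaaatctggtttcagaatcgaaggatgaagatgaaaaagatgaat
HOXD9: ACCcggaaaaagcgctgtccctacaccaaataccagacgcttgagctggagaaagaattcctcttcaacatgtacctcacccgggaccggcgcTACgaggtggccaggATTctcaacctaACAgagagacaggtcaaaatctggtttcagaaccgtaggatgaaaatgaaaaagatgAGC
HOXC9 differed from HOXB9 at 4 of the 60 residues, and HOXD9 at 5.

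Of the 38 members, 27 passed the filter on low values (at least 10 in 2 libraries). The 11 that did not were HOXA2, HOXA3, HOXA4, HOXA11, HOXA13, HOXB1, HOXB13, HOXD1, HOXD10, HOXD11 and HOXD12, none of which exceeded 7.32 in any library. HOXB1, which acts in the hindbrain, was at 0 in all 4 libraries, where a count of 0 allows up to 3 fragments per library by counting error. HOXB2 to HOXB9 passed without a gap, as did HOXA5 to HOXA10 and all 9 HOXC genes. In HOXD, HOXD10, HOXD11 and HOXD12 lay below the filter between HOXD9 and HOXD13, which passed.

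**Figure D1:**
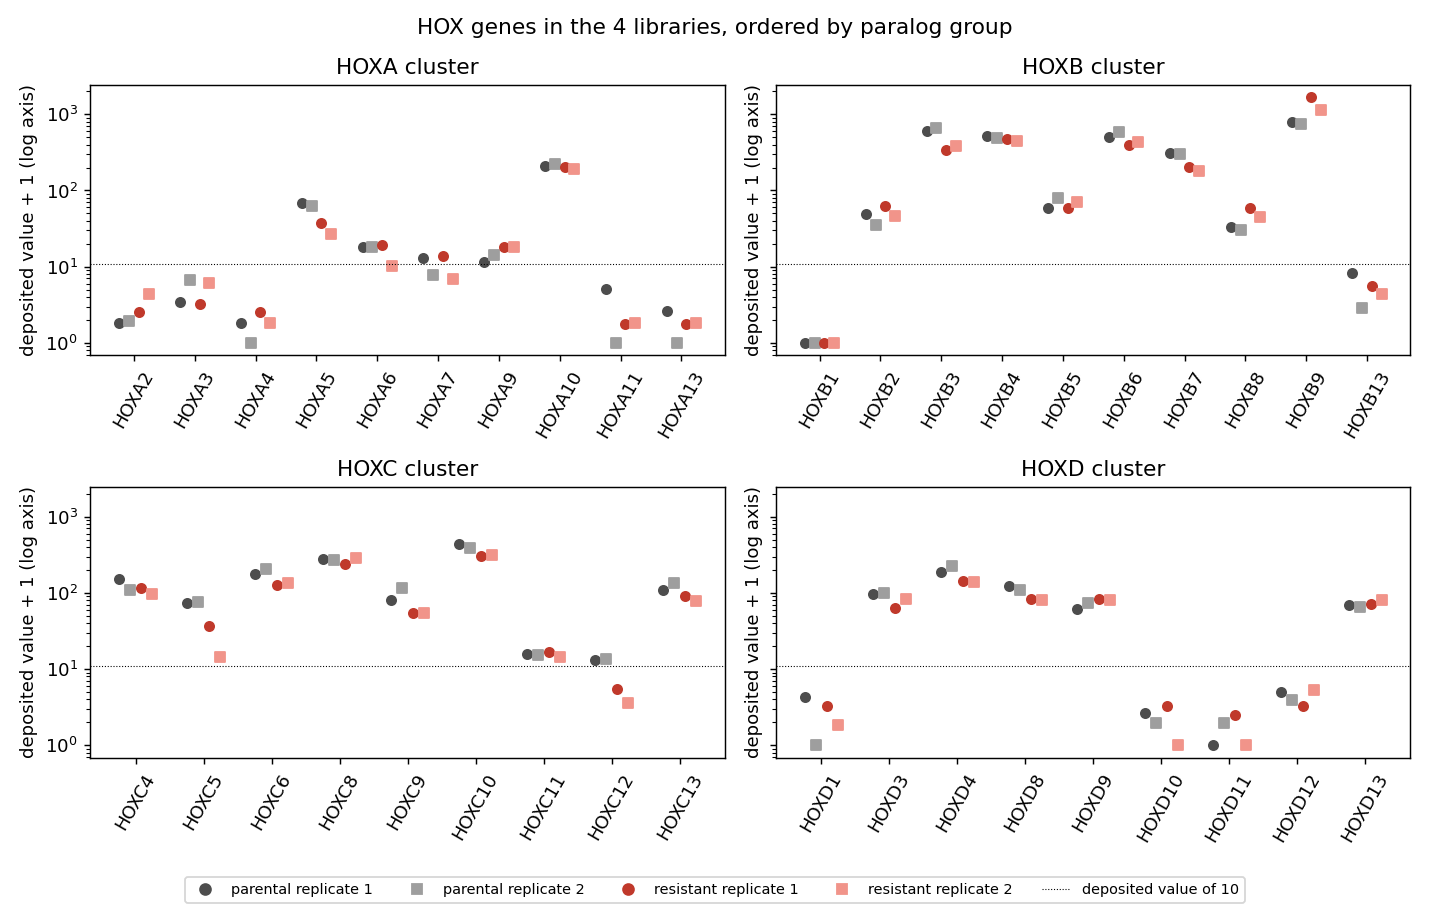
Deposited value plus 1 (log axis) of the 38 HOX genes in each library, 1 panel per cluster, with genes in order of paralog group. Points are single libraries, grey for parental and red for resistant cells, and the dotted line marks a deposited value of 10. The 11 untested genes lie below the line, and HOXB9 stands highest, above 1000 in both resistant libraries.

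Among the 27 tested members 11 changed (40.7%), 1 higher (3.70%) and 10 lower (37.0%). This share of changed genes is near the 37.1% of all genes and the 39.7% of the 13313 protein-coding genes tested. The share that fell was above the 20.9% of all genes and the 23.8% of coding genes, and the share that rose was below. The median log2 fold change of the 27 was -0.37, with 20 values below 0 and 7 above. In 20 members the libraries did not overlap between groups, 15 with the parental pair above, and the same held for 68.6% of all genes. The count of falls depended on single libraries: it was 7 without parental replicate 1 (25.9%, against 19.4% of all genes), 5 without parental replicate 2 (18.5%, against 16.7%), 4 without resistant replicate 1 (14.8%, against 12.5%) and 1 without resistant replicate 2 (3.70%, against 15.1%). With library totals it was 7 (25.9%, against 17.2%). A fit with 1 library in a group has less power, so a lost call is not always a smaller change. The median log2 fold change in the 4 fits, in the same order, was -0.34, -0.38, -0.40 and -0.20. HOXD4 stood at -0.54 and -0.53 without resistant replicate 1 and resistant replicate 2, against -0.54 with all libraries. Without resistant replicate 2, HOXA5 (-0.79) and HOXC5 (-1.03) did fall less than with all libraries. HOXC12 passed the filter only through the parental libraries, so it had to differ, and without it 9 of 26 fell.

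**Figure D2:**
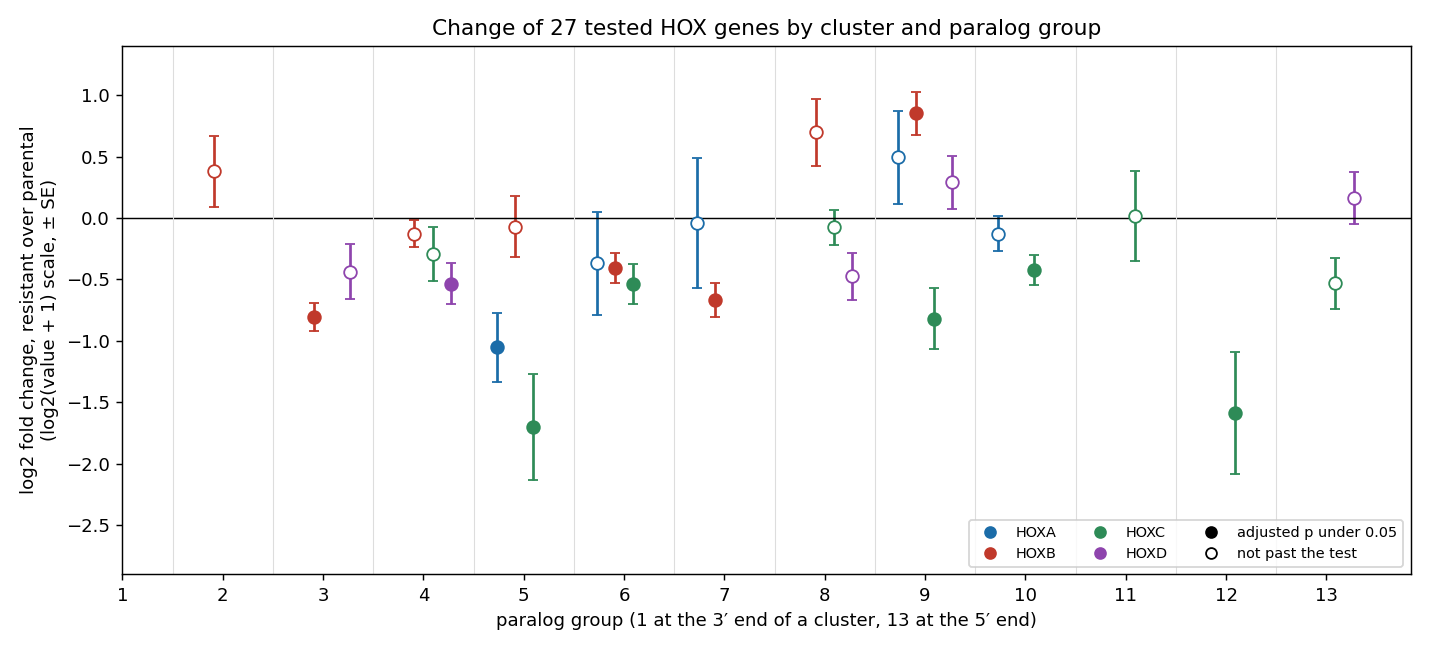
Log2 fold change of resistant over parental cells on the log2(value + 1) scale, with its SE, for the 27 tested HOX genes by paralog group (x axis) and cluster (colour). Filled points passed the test (limma, adjusted p under 0.05). In groups 4 to 8, 13 of 14 values lie below 0, and HOXB9 is the only filled point above 0.

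Position along the cluster was described in 3 blocks. In paralog groups 1 to 3, 3 of 7 members were tested, none rose and 1 fell (33.3%), with a median log2 fold change of -0.44. In groups 4 to 8, 14 of 15 were tested, none rose and 6 fell (42.9%), with a median of -0.39 and 13 of 14 values below 0. In groups 9 to 13, 10 of 16 were tested, 1 rose and 3 fell (30.0%), with a median of -0.06 and 5 values on each side of 0. These 3 falls include HOXC12, which passed the filter only through the parental libraries, so it had to differ. Of all genes 20.9% fell. The difference between blocks was not tested, and the number of falls over all members was smaller in fits without 1 library, as given above.

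In the HOXA cluster, on chromosome 7, 5 of 10 members were tested, none rose and 1 fell, and the median log2 fold change was -0.13. HOXA5, which acts in the development of the lung and the thoracic skeleton, was the one that fell. It stood at 68.3 and 61.2 in parental cells and at 36.9 and 25.5 in resistant cells, with no overlap. The log2 fold change was -1.05 ± 0.28 (SE; limma, adjusted p = 0.0195), and the call was lost without parental replicate 1 (adjusted p = 0.0639) and without resistant replicate 2 (adjusted p = 0.134). HOXA10, a regulator of blood cell and uterine development, was the most abundant of these members per kilobase in all 4 libraries. It stood at 56 and 59.1 units per kilobase in parental cells and 54.4 and 50.9 in resistant cells, a log2 fold change of -0.13 ± 0.14 without a call (limma, adjusted p = 0.539). HOXA6, HOXA7 and HOXA9 were low, between 5.95 and 18.1 in all libraries, and had no call. At the 5′ end, HOXA13, which patterns the distal limb, was at most 1.63.

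In the HOXB cluster, on chromosome 17, 8 of 10 members were tested, 1 rose and 3 fell (2 calls in place of 4 without resistant replicate 2), and the median log2 fold change was -0.10. Of the tested HOXB genes 50.0% changed, against 37.1% of all genes. HOXB was the most abundant cluster. It held 50.5% and 50.1% of the summed HOX signal per kilobase in parental cells and 61.0% and 56.4% in resistant cells. HOXB9 alone held 15.5% and 14.5% against 33.4% and 25.5%. This gain was larger than that of the cluster, so the rest of HOXB held a smaller share in resistant cells. HOXB9 (chr17:48621159-48626356, minus strand) patterns the thoracic region and is studied in several carcinomas. It stood at 783 and 743 in parental cells and at 1675 and 1131 in resistant cells. The 2 resistant libraries were both above the parental pair and stood further apart from each other than the parental ones did. The log2 fold change was 0.85 ± 0.17 (SE; limma, adjusted p = 0.00904). HOXB9 kept its call in all 13 alternatives run, with log2 fold changes of 0.57 to 1.13 and adjusted p of at most 0.0396. No other gene of the annotation that is in the table shares an exon with it.

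HOXB3, a hindbrain gene at the 3′ side, fell with the smallest adjusted p of all members. Its values were 609 and 650 in parental cells and 342 and 380 in resistant cells. The pairs were tight and far apart. The log2 fold change was -0.80 ± 0.11 (SE; limma, adjusted p = 0.00119), called in all 13 alternatives with an adjusted p of at most 0.0112. HOXB3 shares 433 bases of exon with HOXB6 and 159 with HOXB4 on the same strand, 5.81% and 2.13% of its exon length. The 433 bases are 16.6% of the exon length of HOXB6.

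HOXB7, which acts in axial skeleton patterning, fell next to HOXB9 and HOXB8. It stood at 312 and 296 in parental cells and at 201 and 181 in resistant cells. These groups did not overlap, and the log2 fold change was -0.67 ± 0.14 (SE; limma, adjusted p = 0.00662), with an adjusted p of 0.0563 without resistant replicate 2. HOXB6, a gene of the same central block, stood at 508 and 591 in parental and at 393 and 435 in resistant cells. Again the groups did not overlap, but the fall was smaller, -0.41 ± 0.12 on the log2 scale (SE; limma, adjusted p = 0.0331). The call for HOXB6 was lost without parental replicate 2 (adjusted p = 0.135), without resistant replicate 1 (0.205) and without resistant replicate 2 (0.0759).

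HOXB8, between HOXB7 and HOXB9, was low and ran upward without passing the test. It stood at 31.7 and 29.6 in parental cells and at 57.2 and 44.2 in resistant cells, a log2 fold change of 0.70 ± 0.27 (limma, adjusted p = 0.0799). The libraries did not overlap between groups. HOXB4, a regulator of blood stem cell expansion, had no call at 518 and 489 against 470 and 451 (-0.13 ± 0.11; limma, adjusted p = 0.398). HOXB2 and HOXB5 overlapped between groups, and the posterior HOXB13, a prostate gene separated from the rest of the cluster, was at most 7.32.

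Within a library, a ratio of 2 genes does not depend on the library's scaling. HOXB9 over HOXB7, per kilobase, was 1.49 and 1.48 in parental cells and 4.93 and 3.70 in resistant cells. HOXB9 over HOXB3 was 3.71 and 3.30 against 14.2 and 8.60, and HOXB8 over HOXB7 was 0.0759 and 0.0745 against 0.212 and 0.182. None of these ratios overlapped between groups, and the parental pairs were close. In HOXD, HOXD9 over HOXD4 was 0.256 and 0.253 against 0.454 and 0.452, although HOXD9 itself had no call. These pairs were chosen after their values were seen and are given without a test.

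**Figure D3:**
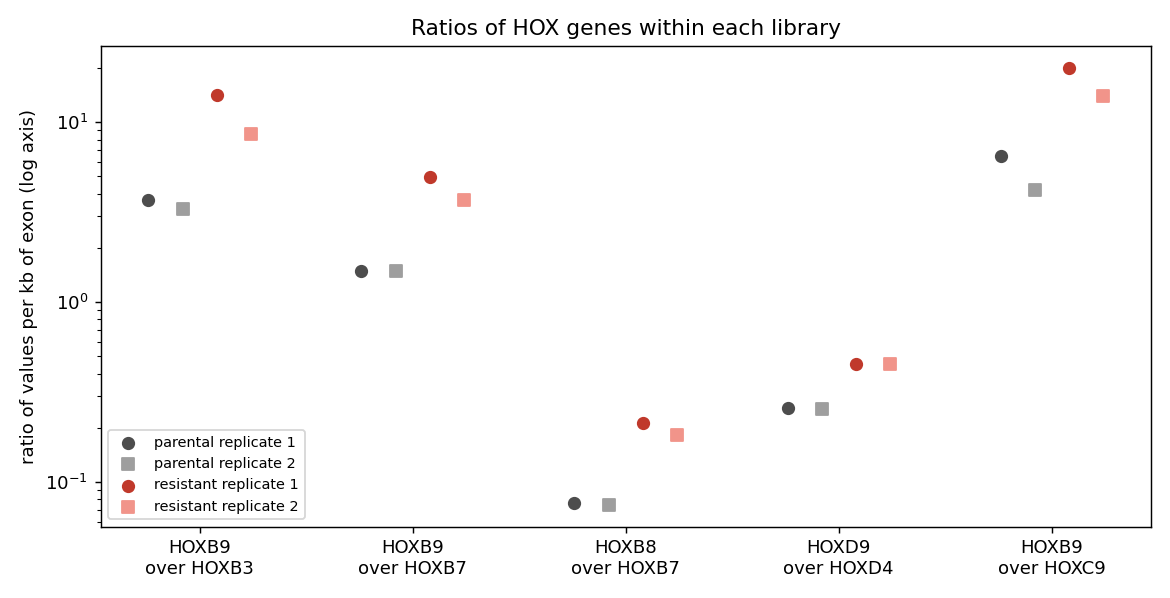
Ratio of the values per kilobase of exon of 2 HOX genes within the same library (log axis), for 5 pairs chosen after their values were seen. Points are single libraries, grey for parental and red for resistant. In each pair both resistant points lie above both parental points, as for HOXB9 over HOXC9 (6.45 and 4.21 against 20.1 and 13.98).

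In the HOXC cluster, on chromosome 12, all 9 members were tested, none rose and 5 fell (55.6%, against 20.9% of all genes), and the median log2 fold change was -0.53. A single value of the 9, that of HOXC11 (0.02), was above 0. The 5 falls were HOXC5, HOXC6, HOXC9, HOXC10 and HOXC12, and their number was 3 without parental replicate 1, 2 without parental replicate 2, 1 without resistant replicate 1 and 0 without resistant replicate 2. It was 3 when libraries were scaled to their totals, and 4 of 8 when HOXC12 was left out of the count.

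HOXC10, a gene of lumbar motor neurons, was the most abundant HOXC member per kilobase in the parental libraries (187 and 167) and fell to 130 and 134 in resistant cells. On the deposited scale this was 437 and 388 against 302 and 312. The groups did not overlap, and the log2 fold change was -0.42 ± 0.12 (SE; limma, adjusted p = 0.0281; 0.0618 with library totals, and 0.110, 0.152 and 0.110 without parental replicate 1, resistant replicate 1 and resistant replicate 2). HOXC8, which marks brachial motor neurons, had no call at 148 and 143 against 126 and 151 units per kilobase. In resistant cells HOXC8 and HOXC10 overlapped, so their parental order was not kept beyond the spread.

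HOXC9, which sets the thoracic identity of motor neurons, stood at 78.9 and 115 in parental cells and at 54.2 and 52.7 in resistant cells. The parental pair was the more spread, and the log2 fold change was -0.82 ± 0.25 (SE; limma, adjusted p = 0.0310). Without parental replicate 2 it was -0.55 with an adjusted p of 0.154, and the adjusted p was 0.103 and 0.116 without resistant replicate 1 and resistant replicate 2. HOXC6, with HOXC8 between it and HOXC9 in paralog order, stood at 178 and 202 against 128 and 133. This was a log2 fold change of -0.54 ± 0.16 (SE; limma, adjusted p = 0.0317), lost with library totals (0.0521) and without any of parental replicate 2, resistant replicate 1 or resistant replicate 2 (0.116 to 0.156).

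HOXC5 had the lowest log2 fold change of all members with all 4 libraries. Its values were 71.9 and 74.8 in parental cells and 35.5 and 13.3 in resistant cells. The parental pair agreed closely and the resistant pair did not. The log2 fold change was -1.70 ± 0.43 (SE; limma, adjusted p = 0.0170), and -1.03 with an adjusted p of 0.0540 without resistant replicate 2, where HOXC12 (-1.27) lay lower. The table holds a second gene ID with this symbol, a noncoding transcript that covers 59.9% of the exon bases of the coding ID, with 0.656 and 15.4 against 0 and 42.4. With both IDs summed the values were 72.5 and 90.2 against 35.5 and 55.7, and the log2 fold change was -0.85 ± 0.28 (SE; limma, adjusted p = 0.0452), a smaller fall than that of HOXA5, so the size of the fall depends on how fragments were divided between the IDs.

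At the 5′ end of HOXC, HOXC12 stood at 12.2 and 12.4 against 4.52 and 2.55, and passed the filter only through the parental libraries, so its values are a description. Its log2 fold change was -1.59 ± 0.50 (SE), and its call was lost when any 1 library was left out. HOXC13, which acts in hair and nail formation, stood at 109 and 135 against 90.4 and 77.3 without a call (-0.53 ± 0.21; limma, adjusted p = 0.0757). At the 3′ end, HOXC4 overlapped between groups (153 and 109 against 115 and 96.8; -0.29 ± 0.22; limma, adjusted p = 0.340). HOXC4 and HOXC6 share 484 bases of exon, so fragments there cannot be told apart by position. Both also share 305 bases with the second HOXC5 ID, 11.2% and 8.62% of their exon lengths.

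In the HOXD cluster, on chromosome 2, 5 of 9 members were tested, none rose and 1 fell, and the median log2 fold change was -0.44. HOXD4, a hindbrain gene, was its most abundant member per kilobase, at 126 and 154 in parental cells and 95.8 and 95.5 in resistant cells. On the deposited scale it stood at 184 and 225 against 140 and 140, without overlap. The log2 fold change was -0.54 ± 0.17 (SE; limma, adjusted p = 0.0354), and the call did not hold with library totals (0.0549), nor without parental replicate 2, resistant replicate 1 or resistant replicate 2 (0.138 to 0.153). A read-through gene, AC009336.2, covers 80.5% of the exon bases of HOXD4, and with its fragments added the log2 fold change was -0.43 ± 0.18 (SE; limma, adjusted p = 0.0864).

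HOXD3 and HOXD8 lay lower in both resistant libraries without a call. HOXD3 stood at 95.3 and 99.8 against 61.8 and 83.2 (limma, adjusted p = 0.162), and HOXD8 at 120 and 108 against 82.8 and 80.7 (limma, adjusted p = 0.0844). AC009336.2 also covers 62.2% of the exon bases of HOXD3. With its fragments added the HOXD3 log2 fold change was -0.25 in place of -0.44 (limma, adjusted p = 0.348). HOXD9 and HOXD13, the digit gene at the 5′ end, lay above 0 (log2 fold changes of 0.29 and 0.16), also without a call. HOXD13 stood at 69.1 and 65.0 against 70.8 and 79.8. HOXD1, at the 3′ end, was at most 3.25.

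Summed over all members, HOX signal differed little between the groups and its makeup differed more. The deposited values summed to 5072 and 5134 in parental cells and to 4984 and 4453 in resistant cells, so the nearest libraries lay close together. Without HOXB9 the sums were 4289 and 4392 against 3310 and 3322, with both resistant libraries well below. HOXB9 was the only member called higher, so leaving it out takes more from the resistant sums. HOXB9 made up 15.5% and 14.5% of the summed signal per kilobase in parental cells and 33.4% and 25.5% in resistant cells. The HOXC share was 29.7% and 29.2% against 22.1% and 25.2%, the HOXD share 13.6% and 14.8% against 11.5% and 13.5%, and the HOXA share 6.19% and 5.90% against 5.33% and 4.92%. Since HOXB9 enters the total, a larger HOXB9 share lowers every other share.

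**Figure D4:**
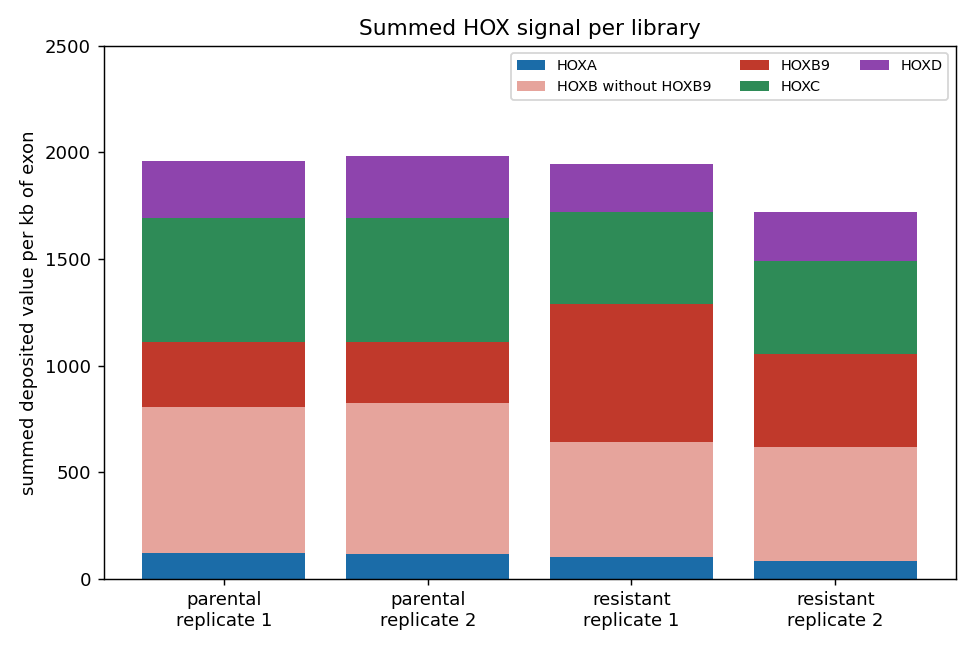
Summed deposited value per kilobase of exon of the HOX genes in each library (y axis, from 0), stacked by cluster with HOXB9 apart from the rest of HOXB. HOXB9 takes 15.5% and 14.5% of the parental bars and 33.4% and 25.5% of the resistant bars.

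Counted by paralog group, falls were found in groups 3 to 7, 9, 10 and 12, and of all genes 20.9% fell. The only tested member of group 12 was HOXC12, which passed the filter only through the parental libraries and had to differ. Paralog group 5 had 3 tested members with 2 falls, group 6 had 3 with 2 falls, and group 8 had 3 with none. Group 4 had 3 tested members with 1 fall, and group 9 had all 4 tested, with HOXB9 higher and HOXC9 lower. HOXA9 (10.6 and 13.4 against 17.3 and 16.99) and HOXD9 (60.2 and 72.7 against 81.3 and 80.7) lay above 0 without a call (limma, adjusted p = 0.345 and 0.339). All 4 were tested, 3 of them lay above 0, and HOXC9 lay below.

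The promoter table of RefSeq (GRCh38.p14) held 27 promoter entries for 20 of the members. The entries are not independent, since 7 are of HOXA3 and those of HOXC4 and HOXC5 are the same bases, and of the 11 called members 2, HOXC5 and HOXD4, have one. In the 250 bases before the start, the composite HOX and PBX motif TGATTNAT occurred on either strand in 2 of 27 entries (HOXA2 and HOXD11), and in 2.48% of all 35116 promoters. The homeodomain core TAATTA occurred in 2 entries (HOXD3 and HOXD11), against 4.35% of all promoters, and CCAAT in 18 entries, against 32.0%. The promoters carried a median of 19 CpG, against 11 over all. Among the motifs, TGATTNAT and TAATTA were searched without regard to overlap with each other.

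Noncoding RNAs of the clusters were measured too. Of a list of 18 HOX cluster noncoding RNAs 3 were tested and none had a call by limma (HOTAIRM1, HOTAIR and HAGLR), with none at an unadjusted p under 0.05, and 3 were at 0 in every library. HOTAIR, a spliced RNA of the HOXC cluster, stood at 30.1 and 53.5 against 25.6 and 32.3 (limma, adjusted p = 0.329). Outside the list, 2 other RNAs inside the clusters were chosen after their values were seen. LINC02086, between HOXB9 and HOXB13 (chr17:48646923-48707346, plus strand), stood at 2.44 and 1.91 in parental and at 19.6 and 10.2 in resistant cells. It passed the filter only through the resistant libraries, from very few fragments, so these values are given without a test. AC012531.1, a noncoding gene in the HOXC cluster (chr12:54019910-54022589), fell from 67.5 and 82.2 to 25.6 and 37.4, a log2 fold change of -1.24 ± 0.28 (SE; limma, adjusted p = 0.00986; 0.0685 without resistant replicate 1).

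HOX proteins bind DNA with TALE homeodomain partners, the PBX, MEIS and PKNOX families. Of 8 listed genes 5 were tested, 1 rose and 2 fell (3 of 5 changed, against 37.1% of all genes), with a median log2 fold change of -0.33. PBX3, a PBX partner, fell from 770 and 757 to 422 and 404 (-0.89 ± 0.10; limma, adjusted p = 0.000474), and this call held in all 13 alternatives. MEIS3 rose from 117 and 158 to 237 and 283 (0.92 ± 0.19; limma, adjusted p = 0.00631; 0.0509 without resistant replicate 2). PKNOX1 fell by 0.35 on the log2 scale (limma, adjusted p = 0.0178), and its call was lost without parental replicate 2, resistant replicate 1 or resistant replicate 2. MEIS1 overlapped between groups.

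Retinoic acid switches on the 3′ HOX genes in development. Of 18 listed genes of its synthesis, receptors and breakdown 13 were tested, 2 rose and 2 fell (30.8% changed, against 37.1% of all genes), with a median log2 fold change of 0.12. There were 2 calls in place of 4 without resistant replicate 1 and 1 without resistant replicate 2. ALDH1A3, which makes retinoic acid, fell from 643 and 729 to 407 and 404 (-0.75 ± 0.11; limma, adjusted p = 0.00142). RARA, a receptor, fell from 710 and 652 to 494 and 502 (-0.45 ± 0.10; limma, adjusted p = 0.0109; at most 0.0756 and lost without resistant replicate 1 or resistant replicate 2). DHRS3, which reduces retinal, rose from 81.3 and 79.4 to 126 and 167 (0.84 ± 0.21; limma, adjusted p = 0.0134; 0.140 without resistant replicate 2), and CYP26B1, which degrades retinoic acid, from 66.7 and 88.9 to 123 and 120 (0.65 ± 0.21; limma, adjusted p = 0.0426; lost without parental replicate 1, resistant replicate 1 or resistant replicate 2).

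Polycomb complexes silence HOX genes and Trithorax complexes keep them active. Of 27 Polycomb genes 25 were tested, 3 rose and 8 fell (44.0% changed, against 37.1% of all genes), with a median log2 fold change of -0.12. EZH2, a methyltransferase of Polycomb complex PRC2, fell from 2237 and 2201 to 1384 and 1320 (-0.71 ± 0.08; limma, adjusted p = 0.000411). CBX2, a subunit of PRC1, fell from 1030 and 1162 to 352 and 492 (-1.39 ± 0.16; limma, adjusted p = 0.000625), and PHF19, a PRC2 accessory protein, from 6054 and 6368 to 4107 and 4303 (-0.56 ± 0.07; limma, adjusted p = 0.000774). CBX7, another PRC1 subunit, rose from 1114 and 1245 to 1711 and 1899 (0.61 ± 0.10; limma, adjusted p = 0.00185). EZH1, the other methyltransferase of PRC2, named after its values were seen, rose from 905 and 1020 to 1492 and 1425 (0.60 ± 0.09; limma, adjusted p = 0.00187). These 5 calls held in all 13 alternatives, while the list had 7 calls in place of 11 without resistant replicate 2.

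Of 16 genes of MLL and Trithorax complexes and demethylases, all tested, 1 rose and 6 fell (43.8% changed, against 37.1% of all genes), with a median log2 fold change of -0.25. KDM6B, a demethylase that removes the Polycomb mark, rose from 373 and 441 to 865 and 890 (1.11 ± 0.12; limma, adjusted p = 0.000313). SETD1A, a methyltransferase, fell from 2055 and 2198 to 1325 and 1512 (-0.59 ± 0.09; limma, adjusted p = 0.00199). WDR5, a shared subunit, fell from 3314 and 3698 to 2409 and 2662 (-0.47 ± 0.09; limma, adjusted p = 0.00459). CTCF, which bounds chromatin domains at HOX clusters, fell from 2832 and 2667 to 1876 and 2033 (-0.49 ± 0.08; limma, adjusted p = 0.00251). These calls also held in all 13 alternatives.

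Among 7 upstream regulators 3 were tested, and 1 fell (33.3%, against 20.9% of all genes). It was GDF11, a secreted factor that sets the posterior HOX boundary, at 1392 and 1327 against 798 and 837 (-0.73 ± 0.09; limma, adjusted p = 0.000575). CDX4 was at 0 in all libraries, and CDX1 and CDX2 were at most 1.51 and 11.9. Of 9 related homeobox genes 2 were tested and 1, PDX1, fell (50.0%, against 20.9% of all genes). The log2 fold change of PDX1 was -0.86 ± 0.29 (SE; limma, adjusted p = 0.0455). Its call was lost with TMM factors, with library totals and without parental replicate 1, resistant replicate 1 or resistant replicate 2. EVX1 and EVX2, the homeobox genes at the 5′ ends of HOXA and HOXD, were at 0 in all libraries.

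Genes flanking the clusters within 500 kb were counted beside the members. Of those tested, 33.3% changed next to HOXB and 33.3% next to HOXC, against 37.1% of all genes. Next to HOXA, 2 of 3 coding genes were tested and none had a call by limma, with 1 (SKAP2) at an unadjusted p under 0.05. Next to HOXD, 2 of 3 were tested and none had a call by limma or an unadjusted p under 0.05. Next to HOXB, 12 of 18 were tested, 1 rose and 3 fell, with a median log2 fold change of -0.10. CALCOCO2, an autophagy receptor, rose from 1370 and 1454 to 2455 and 2324, while ABI3 fell from 125 and 180 to 17.3 and 34.0. GNGT2, adjacent to ABI3 and counted among the 3 falls, stood at 62.6 and 50.7 against 9.04 and 9.34. GNGT2 passed the filter only through the parental libraries, so it had to differ and its values are a description. Next to HOXC, 15 of 19 were tested, 3 rose and 2 fell (3 calls in place of 5 without resistant replicate 1), with a median of 0.19, whereas the HOXC genes had a median of -0.53. NFE2, a blood transcription factor, rose from 11.4 and 16.3 to 92.6 and 98.5 (2.72 ± 0.29; limma, adjusted p = 0.000344), and CALCOCO1 from 1440 and 1834 to 3319 and 3598. CBX5, a heterochromatin protein, fell from 19730 and 19203 to 13912 and 14545 (-0.45 ± 0.07; limma, adjusted p = 0.00137).

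**Figure D5:**
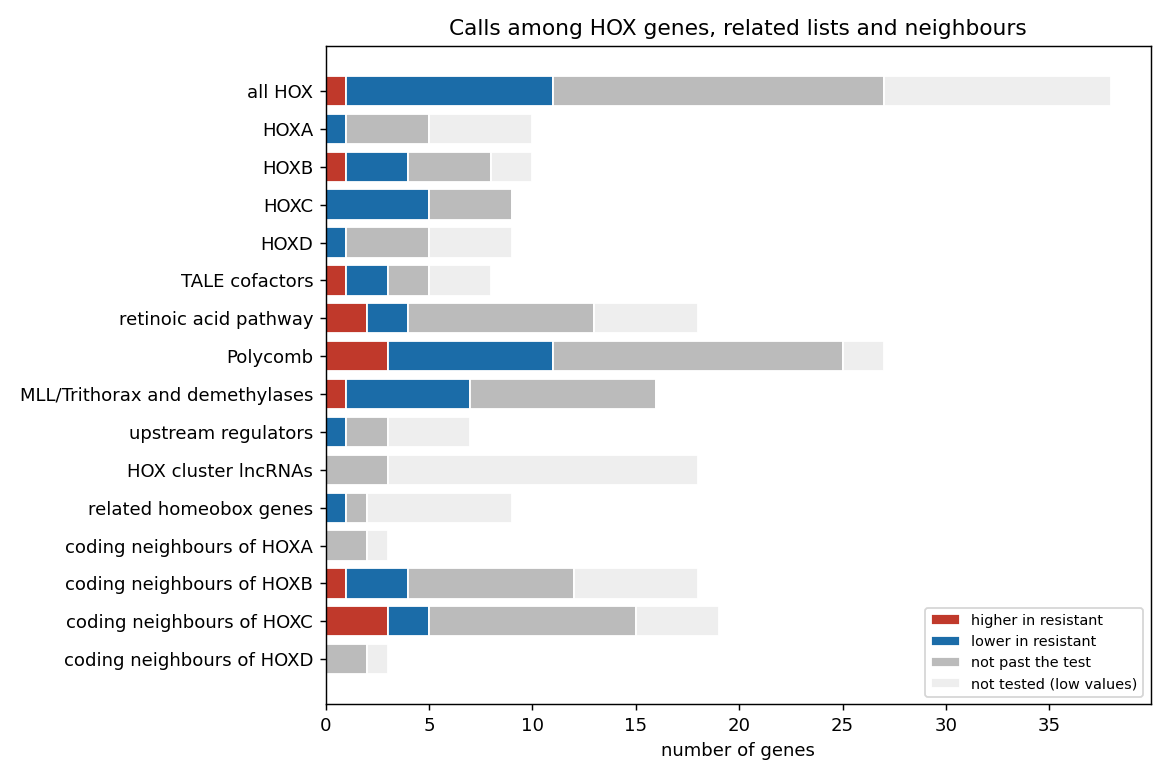
Number of genes (x axis) that were higher or lower in resistant cells, did not pass the test (limma, adjusted p under 0.05) or were not tested because of low values, for the HOX genes, their clusters, the related lists and the coding genes within 500 kb. All HOX shows 1 higher and 10 lower of 27 tested, HOXC 5 lower and none higher of 9, and the Polycomb list 3 higher and 8 lower of 25.

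Markers of glioma and of other cell types were counted in the same libraries, and their part in the HOX results was not tested. Of 9 glioma and astrocyte markers 5 were tested, 1 rose and 3 fell (summed level 106930 and 111935 against 70175 and 77879). Most of that sum was VIM (74280 and 81177 against 47407 and 54488). NES, VIM and CD44 fell, with log2 fold changes of -1.06, -0.61 and -0.47, and SLC1A3 rose (0.48), and these 4 calls by limma held in all 13 alternatives. Of 6 endothelial markers 3 fell, TIE1, CDH5 and TEK (50.0%, against 20.9% of all genes), and none rose. TIE1 went from 220 and 267 to 24.1 and 11.9, and the summed level was 1427 and 1630 against 997 and 889. The call of TEK was lost in 4 of 13 alternatives, library totals among them. PECAM1 lay above 0 without a call (log2 fold change 0.25). Of 5 epithelial markers 2 rose, KRT8 and KRT18, which made up most of the summed level (18587 and 20478 against 35201 and 36865). EPCAM, CDH1 and KRT19 overlapped between groups. RBFOX3, 1 of 5 tested neuronal markers, rose from 57.8 and 66.9 to 190 and 187, and the other 5 neuronal genes summed to 113 and 119 against 107 and 127. CD68, 1 of 4 tested hematopoietic markers (25.0%, against 16.2% of all genes), rose too, from 520 and 500 to 887 and 966. It made up most of the summed level of that list (667 and 607 against 1033 and 1088). The other tested hematopoietic markers had no call. None of 7 fibroblast markers (12832 and 10004 against 13383 and 10865) and none of 2 tested oligodendrocyte markers (153 and 144 against 134 and 107) had a call by limma or an unadjusted p under 0.05. MOG of the oligodendrocyte list and AIF1 of the hematopoietic list were at 0 in every library.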

How the data were processed

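RNA was sequenced from 2 parental and 2 TMZ-resistant GBM8401 libraries made with a strand-specific kit, per the labels' protocols, and groups were taken from the labelled treatment. The submitters' processing notes name HISAT2 2.1.0, Cufflinks 2.2.1, Cuffdiff, Trimmomatic 0.36, SAMtools 1.2 and bcl2fastq, with build GRCh38.p10. Their settings, annotation, scaling and strand: not given in the sources used here. For that reason reads of a gene and its antisense partner cannot be told apart. The values the authors deposited are a signal: fragments per gene times 0.753 to 0.956 by library. After division by that step, 92.4% to 93.9% were whole within 0.05. Depth was 27019015 to 30759793 fragments.

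Genes with at least 10 in 2 libraries and a sum of at least 15 were tested on log2(value + 1) with limma 3.58.1 (R 4.3.3), trend and robust moderation, group alone, two-sided, and Benjamini-Hochberg adjustment over all 16132. This scale understates changes of low genes. Values per kilobase use merged exons of GENCODE 29, which held 57881 of the IDs. The fit was tested on simulated data. Where a library was left out, the lone library of its group was assumed to vary like the other group.

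The members, the lists and the rule for named genes were chosen with earlier results of these data known. The rule names called members, the most abundant member of each cluster, the members at cluster ends and at most 4 called genes per list. Alternatives for clusters, lists and other named genes, and sums over overlapping IDs, were chosen after seeing the data. Of the 39 members 1, and 1 gene of the cofactor list, are not reported here. They entered the fit over all genes, and the counts, medians and sums of members and lists leave them out.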

Additional observations from a re-analysis of the deposited data

How the results depend on the processing

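Over 13 alternatives the median log2 fold change of the tested HOX genes stayed between -0.42 and -0.20, and no called member changed sign. The 1 rise and 10 falls were the same in number with TMM factors, ratio-based size factors, pseudocounts of 0.5 and 5, no filter and no robust moderation. With a filter of 1 CPM there were 9 falls among 22 tested members, and with library totals 7. HOXB3 and HOXB9 kept their calls in all 13, and HOXB7 and HOXC5 in 12. Leaving out 1 library in turn gave 1 rise and 1 to 7 falls, with 0 to 1 calls in HOXA, 2 to 4 in HOXB, 0 to 3 in HOXC and 0 to 1 in HOXD. In the lists it gave 1 to 3 calls for TALE cofactors, 1 to 4 for the retinoic acid pathway, 7 to 11 for Polycomb, 5 to 8 for MLL and Trithorax, 0 to 1 for related homeobox genes and 3 to 6 for neighbours of HOXC. Library totals gave 3 calls in HOXC, 0 in HOXD, 0 among related homeobox genes, 1 among neighbours of HOXA and 10 among those of HOXC. TMM factors gave 0 among related homeobox genes and 8 among neighbours of HOXC. Without a filter, 1 HOX cluster noncoding RNA was called. HOXD4 lost its call when AC009336.2 was added (-0.43, adjusted p = 0.0864). The cause was not tested.

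With the replicate number as a replicate block there were 2 rises and 12 falls, adding HOXB8, HOXC13 and HOXD8, and 8624 genes were called in all. The block gave 2 calls in HOXD, 17 in Polycomb, 12 in MLL and Trithorax, 1 among neighbours of HOXA and 9 among those of HOXC. Deviations of same-numbered libraries correlated at 0.265 over 16132 genes, and nothing in the labels ties the numbers to a shared day. The planned count-based test was not run: the deposited values are scaled, and 92.4% to 93.9% of them, not all, were whole within 0.05 after division by the step. With 2 libraries a group, an exact permutation test of 1 gene cannot go below 33.3%.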

Other observations

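Of the noncoding RNAs of the HOXC cluster, 4 antisense RNAs were too low to test, and were picked after their values were seen. HOXC-AS3 stood at 1.63 and 1.91 in parental cells and at 6.02 and 6.79 in resistant cells. HOXC-AS1 stood at 4.07 and 3.82 against 12.8 and 5.94, HOXC-AS2 at 1.63 and 0 against 3.01 and 3.40, and HOXC13-AS at 1.63 and 2.87 against 18.1 and 6.79. In all 4 the resistant libraries lay above the parental ones, while 8 of the 9 coding genes of the cluster had log2 fold changes below 0. Of all tested genes, 68.6% had no overlap between groups. As these 4 were picked by their values, their shared direction is a description. HOTAIR and AC012531.1, noncoding RNAs of the same cluster that were tested, had log2 fold changes of -0.47 (no call) and -1.24 (lower). FLJ12825, a noncoding gene downstream of HOXC4, also lay lower, at 13.02 and 8.60 against 3.01 and 2.55. Each of these untested values rests on 24 fragments or fewer.

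CDX2, an upstream activator of HOX genes in the posterior embryo, was listed at 0.813 and 7.65 in parental cells and at 9.79 and 11.9 in resistant cells, and was not tested.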
